A study of Macaca mulatta with 8 samples.

Results

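The zona pellucida genes ZP1, ZP3 and ZP4, the oocyte growth factor gene BMP15 and the receptor gene KIT were followed through 7 probe sets on a rhesus macaque expression array, of 52766 probe sets that are not controls. They are 5 of 14132 genes that have a probe set with a single symbol. A probe set was taken when the platform annotation gave it one of these symbols and no other. This gave 3 probe sets for ZP4 and 1 for each of the other 4 genes, and RefSeq lists the Entrez identifiers of all 5 genes. ZP2 and GDF9, the usual companions of these genes, are not analysed here.

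The series compared metaphase II oocytes of Macaca mulatta that had completed maturation inside the animal (in vivo) with metaphase II oocytes that had completed it in culture (in vitro). Each group had 4 arrays, and each array carried the amplified RNA of a pool of 4 oocytes. No genotype, age, hormone treatment, culture medium or animal is given for any group in the sources used here, and pools of one group may share animals, so a p-value describes how these pools vary. With so few arrays, precision is limited throughout.

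The zona pellucida is the glycoprotein coat of the egg, spun from a few zona proteins that the growing oocyte makes and secretes. ZP3 and its partners build the filaments, ZP1 cross-links them, and ZP4 is a further coat protein in primates. BMP15 is a secreted factor of the TGF-beta family through which the oocyte acts on the surrounding cumulus cells. KIT is the receptor tyrosine kinase on the oocyte surface for KIT ligand, which granulosa cells make, and it is known for its part in the survival and growth of oocytes. At metaphase II the egg is largely silent in transcription, so its mRNA is mostly a maternal store.

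The oocyte identity of the pools was checked first. Of 16 oocyte marker genes with a tested probe set, 14 were above background on all 8 arrays, and MOS, which keeps metaphase II arrest, had a signal of 4927 ± 478 (SD, n = 4) in vivo and 4944 ± 616 in vitro. The exceptions were SOHLH1 and NOBOX, transcription factors of early follicles. An array's background level was set at percentile 95 of the signals of 59 control probe sets for transcripts that were not added, and it lay between 15.7 and 27.0. Signals are MAS5 intensities, a linear scale on which every array has the same trimmed mean. Levels are compared here within a probe set, or as a sum over the same probe sets on each array.

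All 5 genes were detected in both groups, and none of their 7 probe sets passed the test between oocytes matured in culture and in the animal. BMP15 came nearest, with each in vitro array above each in vivo array and a mean 1.23-fold higher on the log2 scale. The probe sets of ZP1 and ZP3 had lower means in vitro, those of KIT and the 2 brighter ZP4 probe sets had higher ones, and the dimmest ZP4 probe set had a lower one. Every one of the 7 was above background on all 4 arrays of each group. In limma's test 0 of 7 passed an adjusted p of 0.05, and 0 of 7 had an unadjusted p below that value, beside 0.144% and 10.2% of all 26383 tested probe sets. The median absolute log2 difference was 0.31 over the 7 and 0.26 over all tested probe sets.

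**Figure D1:**
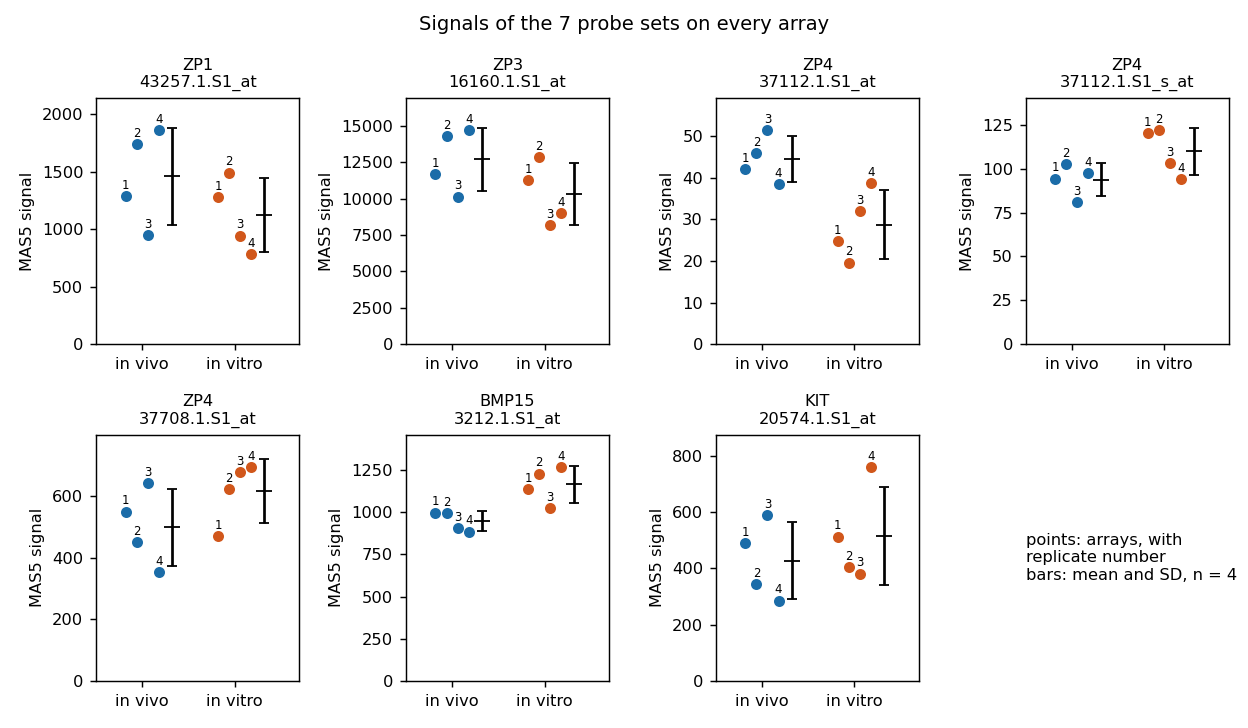
MAS5 signal (linear scale from 0) of each member probe set on the 4 in vivo (blue) and 4 in vitro (orange) arrays, numbered by replicate, with mean and SD. BMP15 is the one panel in which the groups do not overlap, at 885 to 998 in vivo and 1023 to 1270 in vitro.

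ZP3 had signals of 11684, 14282, 10140 and 14715 on in vivo replicates 1 to 4 and of 11255, 12844, 8201 and 8998 on in vitro replicates 1 to 4. The groups overlapped, with in vivo replicate 4 highest and in vitro replicate 3 lowest. The means were 12705 ± 2172 (SD, n = 4) in vivo and 10324 ± 2120 in vitro. The log2 difference, in vitro minus in vivo, was -0.31 ± 0.18 (SE) with a 95% interval from -0.69 to 0.08 and a limma adjusted p of 0.589. That interval runs from a ratio of 0.619 to one of 1.06, so a decrease below 0.619 of the in vivo level lies outside it. The highest signal on any array was 33995 and the lowest array maximum 16522, so ZP3 lay in the upper range of the scale on every array, where the response of the scanner was not tested.

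ZP1, the cross-linking component, was at 1288, 1736, 945 and 1860 in vivo and at 1280, 1491, 943 and 785 in vitro. The groups overlapped over most of their range, and in vitro replicate 4 was the lowest of all arrays. The means were 1457 ± 421 and 1125 ± 320. The log2 difference was -0.37 ± 0.25 (SE), with a 95% interval from -0.90 to 0.16 and a limma adjusted p of 0.649.

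The 3 probe sets of ZP4 did not share a direction. The brightest, MmugDNA.37708.1.S1_at, had signals of 549, 451, 642 and 352 in vivo and 470, 622, 678 and 695 in vitro. Here 3 in vitro arrays lay at the top beside in vivo replicate 3, and in vivo replicate 4 was lowest. Its log2 difference was 0.32 ± 0.22 (SE), with an interval from -0.15 to 0.79 and a limma adjusted p of 0.654.

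The other ZP4 probe sets have identifiers with a shared root and gave opposite pictures. MmugDNA.37112.1.S1_s_at, whose suffix marks probes that can match several transcripts, read 94.3, 102, 80.8 and 97.5 in vivo and 120, 122, 103 and 93.9 in vitro, with 3 in vitro arrays above the in vivo range. MmugDNA.37112.1.S1_at was dim, at 42.0, 45.9, 51.4 and 38.4 in vivo and 24.7, 19.6, 31.9 and 38.7 in vitro, so that only in vitro replicate 4 reached the in vivo range. The first had a log2 difference of 0.21 (interval -0.29 to 0.70) and the second one of -0.53 (interval -1.23 to 0.17), with limma adjusted p-values of 0.797 and 0.607. Over the 8 arrays these 2 probe sets ran against each other (Pearson r = -0.906, Spearman rho = -0.833), and r was -0.687 without in vitro replicates 1 and 2. The brightest ZP4 probe set had r = -0.0836 with the dim one and -0.168 with the other. With ZP1, the probe set whose suffix marks several transcripts had r = 0.396 over the 8 arrays and 0.948 with group means removed. The dim one had -0.148 and -0.847 with ZP1, and the brightest had -0.842 and -0.800. The ZP4 value thus differed with the probe set read. On the dim one a log2 difference of -0.36 was obtained with a pseudocount of 27.7 and -0.65 with a pseudocount of 1.

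BMP15 had signals of 998, 996, 904 and 885 in vivo and of 1137, 1230, 1023 and 1270 in vitro. All 4 in vitro arrays were above all 4 in vivo arrays, with a gap from 998 to 1023. Among all tested probe sets 6.28% had groups that did not overlap, 3.17% with the in vitro group higher, a background beside which 1 of 7 is not set apart. The means were 946 ± 59.7 in vivo and 1165 ± 110 in vitro. The log2 difference was 0.30 ± 0.16 (SE), with a 95% interval from -0.05 to 0.64 and a limma adjusted p of 0.562 (unadjusted 0.0896). BMP15 was also among the least variable probe sets: its pooled standard deviation within groups was 0.117 on the log2 scale, and 0.822% of tested probe sets had a smaller one.

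KIT had signals of 489, 345, 588 and 286 in vivo and of 513, 404, 381 and 761 in vitro. The groups overlapped, and in vitro replicate 4 stood highest with no other array above 588. The means were 427 ± 137 and 515 ± 174, and the log2 difference was 0.27 ± 0.27 (SE), with an interval from -0.31 to 0.84 and a limma adjusted p of 0.773. Without in vitro replicate 4 the log2 difference was 0.06, and without in vivo replicate 3 it was 0.44. KIT varied most of the 7, with a standard deviation within groups of 0.455 on the log2 scale. KIT is also a mast cell gene. Of the mast cell markers, CPA3 was above background on 1 of 8 arrays and MS4A2 on 0, while HDC read 84.2 ± 45.0 on the in vivo arrays and 45.2 ± 12.1 on the in vitro ones.

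**Figure D2:**
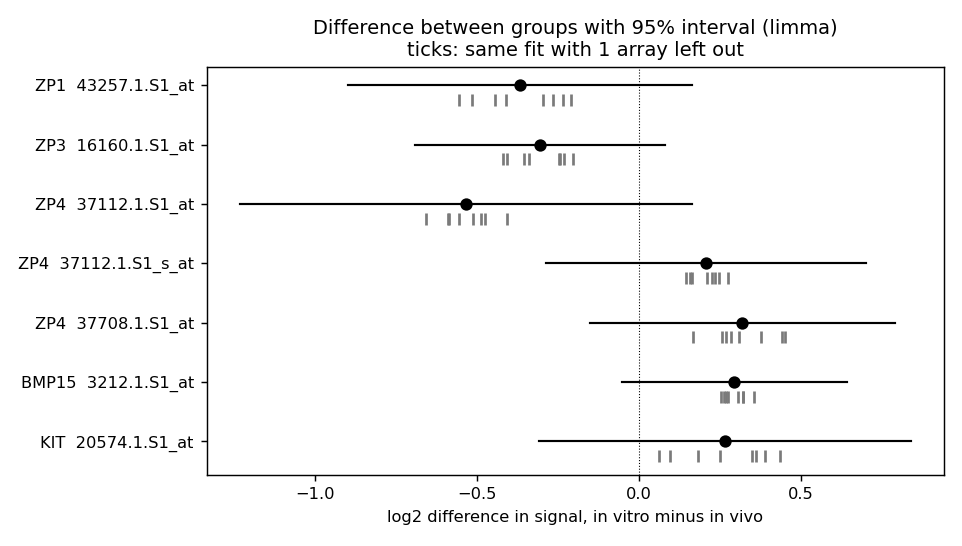
Log2 difference in signal, in vitro minus in vivo, for each member probe set with its limma 95% interval (line) and the value with each array left out in turn (grey ticks). All 7 intervals include 0, and no left-out array moves an estimate across 0.

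ZP1, ZP3, the brightest ZP4 probe set and KIT also varied among arrays of one group, in a closely related order among the in vivo arrays. ZP1 and ZP3 ranked the 4 in vivo arrays in the same order, with replicate 4 highest, then 2, 1 and 3. KIT and the brightest ZP4 probe set ranked the same 4 arrays in exactly the opposite order. Among the in vitro arrays, ZP1 and ZP3 both had replicates 2 and 1 above replicates 3 and 4, while the highest KIT and ZP4 signals were both on replicate 4. On in vitro replicate 1, however, ZP4 was lowest and KIT second highest. Over the 4 arrays of a group, KIT and the brightest ZP4 probe set had r = 0.986 in vivo and 0.0922 in vitro, and KIT and ZP3 had -0.982 in vivo and -0.211 in vitro. ZP1 and ZP3 had 0.996 and 0.901.

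Over all 8 arrays, ZP1 and ZP3 had a Pearson r of 0.949 and a Spearman rho of 0.976 on log2 values. Without in vivo replicate 4 and in vitro replicate 4, the arrays farthest from the ZP1 median, r was 0.937, and with the group means removed it was 0.941. Of all other tested probe sets 3 correlated more closely with ZP1 than ZP3 did, and 3 correlated more closely with ZP3 than ZP1 did. These correlations are descriptions over 8 arrays that share their amplification and scaling steps. The 21 pairs of member probe sets were all computed.

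The brightest ZP4 probe set had r = -0.842 (rho = -0.905) with ZP1 and r = -0.812 (rho = -0.881) with ZP3. Without the 2 arrays farthest from the median of ZP1 and of ZP3 in turn, these were -0.721 and -0.704. KIT had r = -0.815 (rho = -0.762) with ZP1, which was -0.523 without the 2 arrays farthest from the ZP1 median. With ZP3, KIT had r = -0.628, which was -0.997 without the 2 arrays farthest from the ZP3 median. KIT and the brightest ZP4 probe set had r = 0.668 (rho = 0.667), but 0.145 without in vivo replicates 2 and 4, so that relation rests on those arrays. BMP15 followed none of them closely, with r between -0.333 (ZP1) and 0.493 (KIT) for the brightest probe sets of the other genes.

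The 3' to 5' signal ratio of the array's EEF1A1 control transcript depends, among other things, on how far amplification reached along the RNA. This ratio varied with several of these signals, and the cause was not tested. Its log2 value was 1.43, 2.94, 1.44 and 3.67 on in vivo replicates 1 to 4 and 1.96, 2.29, 2.10 and 1.84 in vitro. It was thus high on the in vivo arrays with high ZP1 and ZP3 and low KIT. Its r over the 8 arrays was 0.741 with ZP1, 0.666 with ZP3, -0.763 with the brightest ZP4 probe set, -0.801 with KIT and -0.290 with BMP15. Of the 3 such control ratios on the array this one had the largest r, in size, with each of ZP1, ZP3, the brightest ZP4 probe set and KIT. The GAPDH ratio had the largest with BMP15 (0.456), the ZP4 probe set whose suffix marks several transcripts (0.627) and the dim ZP4 probe set (-0.429). That of beta-actin had r = 0.540 with ZP1, 0.408 with ZP3, -0.343 with the brightest ZP4 probe set and -0.755 with KIT, and that of GAPDH had 0.388, 0.326, 0.0172 and -0.353 in the same order. With group means and the EEF1A1 ratio removed, r between ZP1 and ZP3 was 0.893, KIT and the brightest ZP4 probe set had 0.0260 and KIT and ZP3 had -0.105. Under the same removal ZP1 still had -0.513 with KIT and -0.541 with the brightest ZP4 probe set, and ZP3 had -0.486 with the latter. With the ratio as a covariate, a fit chosen after seeing the data, the log2 difference was -0.24 for ZP1, -0.23 for ZP3, 0.22 for the brightest ZP4 probe set, 0.29 for BMP15 and 0.12 for KIT, and 0 of 7 passed.

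**Figure D3:**
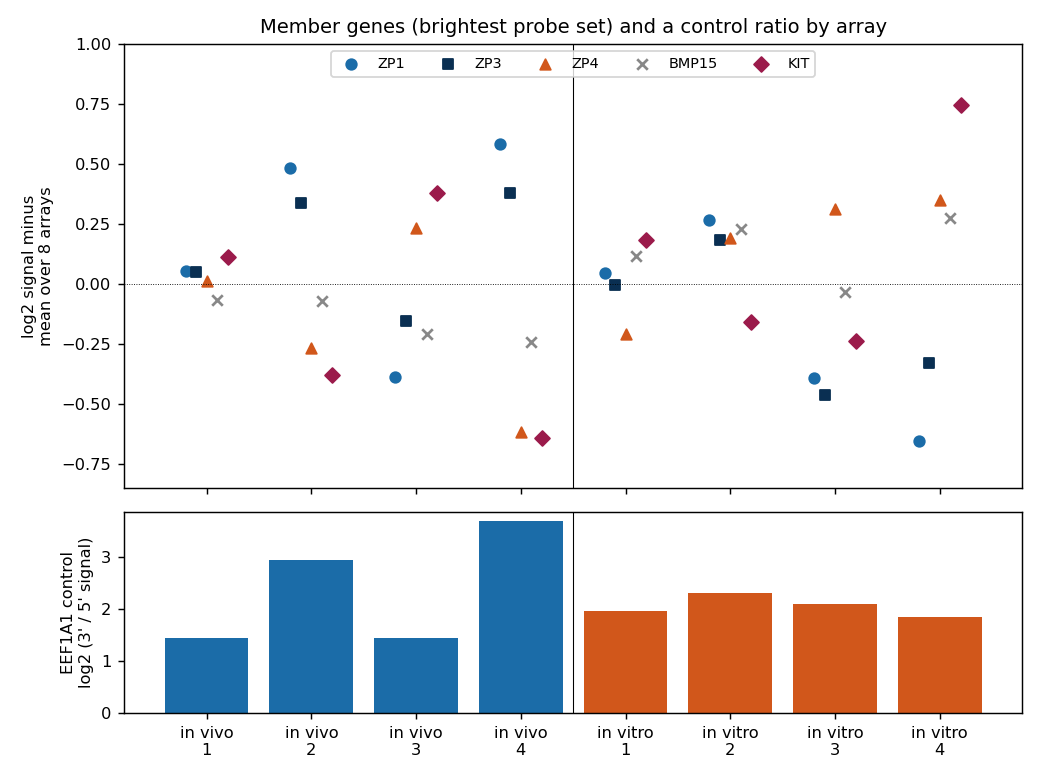
Upper panel: log2 signal of each member gene at its brightest probe set, minus its mean over the 8 arrays. Lower panel: log2 of the 3' over 5' signal of the EEF1A1 control. ZP1 and ZP3 largely rise and fall together, and are farthest apart on in vitro replicate 4 (-0.65 and -0.33). KIT and ZP4 lie on the other side of 0 on in vivo replicates 2, 3 and 4. The control ratio is highest on in vivo replicate 4 (3.67).

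Ratios between members on the same array are nearly free of how arrays were scaled. Of the 10 pairs of member genes, computed after the single values were known, 1 had groups that did not overlap, the ratio of ZP3 to BMP15. Relative to its in vivo mean, the log2 ratio was -0.18, 0.11, -0.25 and 0.32 in vivo and -0.42, -0.35, -0.73 and -0.91 in vitro. Its mean was 0.60 lower in vitro on the log2 scale, with standard deviations of 0.264 in vivo and 0.262 in vitro (n = 4 each). Ratios to BMP15 did not overlap between groups for 10.7% of all other tested probe sets, and ratios to ZP3 for 7.68%, shares of the same order as 1 of 10.

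For each member, the genes most alike over the 8 arrays were taken, leaving out the other members. These were the 3 with the highest Pearson r of log2 signal, each at its best-correlated probe set. ZP1 was most like ADGRL1, an adhesion G protein-coupled receptor gene (0.977), CIAO2B, of cytosolic iron-sulfur cluster assembly (0.947), and the F-box gene FBXO6 (0.941). ZP3 was most like the corepressor gene RCOR3 (0.949), OSGIN1 (0.946) and again FBXO6 (0.943). The brightest ZP4 probe set was most like C4H6orf62 (0.961), LANCL1 (0.951) and the mitochondrial ribosome gene MRPS28 (0.949). BMP15 was most like the chromatin remodelling gene BAZ1B (0.977), MLEC, which encodes a lectin of the endoplasmic reticulum (0.972), and the urokinase receptor gene PLAUR (0.971). KIT was most like the phosphoinositide phosphatase gene MTMR2 (0.970), the syntenin gene SDCBP (0.963) and COPS8, of the COP9 signalosome (0.958). With 8 arrays and 26383 probe sets, values of this size arose for each member. Further probe sets of a gene did not always share the sign of its log2 difference. LANCL1 had 0.39 at the named probe set and -0.28 at its other one. COPS8 had 0.22 at the named probe set, -0.93 at a further one and 0.08 to 0.40 at the others.

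Regulators of zona gene transcription were given by a list of 15 genes, of which 11 were tested and 0 passed. Of the 11, 4 had an unadjusted p under 0.05 and 7 a positive log2 difference, with a median of 0.11. Over all tested probe sets these shares were 10.2% and 50.7%, with a median of 0.01. They are the background for every list below. FIGLA, the factor that switches on zona genes through E-box sites, had a signal of 1701 ± 305 in vivo and 1615 ± 410 in vitro, which is a log2 difference of -0.09. ID3, an inhibitor of E-box factors and a target of BMP signalling, was at 155, 47.6, 89.3 and 60.5 in vivo and at 268, 265, 237 and 267 in vitro. The ID3 arrays thus did not overlap, and those of the in vitro group lay within a narrow band. Its log2 difference was 1.60, a 3.02-fold higher mean, with a limma adjusted p of 0.0564 that misses the threshold. Over 17 alternatives that p ran from 0.00482 (without in vivo replicate 1) to 0.223, and it passed in 7 of them. Both further ID3 probe sets fell below the filter, the brighter with signals of 17.9 ± 9.76 in vivo and 34.9 ± 21.3 in vitro. ID4, SOHLH1 and LHX8 had log2 differences of 0.76, -1.00 and -0.62, with limma adjusted p-values of 0.426, 0.453 and 0.464, and SOHLH1 was above background on 1 of 4 in vitro arrays.

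Genes that process the zona proteins, egg surface genes and zona-domain relatives made a list of 19, of which 10 were tested, 0 passed and 1 had an unadjusted p under 0.05 (median log2 difference -0.12). FURIN, a protease that trims zona and TGF-beta family precursors, was at 984 ± 273 in vivo and 1016 ± 123 in vitro. CD9, a tetraspanin needed for fusion with sperm, had a log2 difference of -0.40 at its brightest probe set, -0.55 at another and 0.98 at a dim one. Its relative CD81 had -0.55, and the zona-domain genes CUZD1 and TGFBR3 had 0.66 and 0.39, with limma adjusted p-values from 0.348 to 0.575 over these genes at their brightest probe sets.

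Of the 36 genes of BMP15 signalling, 23 were tested and 0 passed. An unadjusted p under 0.05 was found for 4 (10.2% over all tested probe sets) and a positive log2 difference for 14 (50.7% over all). The median log2 difference was 0.12. Among the ligands, BMP4 was at 446, 473, 245 and 833 in vivo and at 1499, 977, 667 and 828 in vitro, with a log2 difference of 1.04 and a limma adjusted p of 0.291. The groups overlapped through in vivo replicate 4. BMP4 passed in 1 of 17 alternatives, the EEF1A1 ratio as a covariate, which was added after seeing the data (limma adjusted p = 0.0406). Over the 17 that p ran up to 0.621. BMPR1B, the type I receptor that binds BMP15, had signals of 51.8 ± 10.6 in vivo and 60.9 ± 7.54 in vitro. ACVR2A, an activin type II receptor, had a log2 difference of -0.51. GREM1, an antagonist of BMP ligands made by cumulus cells, was above background on 2 of 4 in vivo and 4 of 4 in vitro arrays, with signals of 19.4 ± 9.58 and 42.1 ± 10.6. Its fitted log2 difference of 0.93 (adjusted p = 0.450) is thus partly set against background. The signal mediator SMAD2 read 5661 ± 1545 in vivo and 5262 ± 375 in vitro. The antagonist FST had a log2 difference of -0.22.

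Of the 50 genes of KIT signalling, 31 were tested and 0 passed. An unadjusted p under 0.05 was found for 6 (10.2% over all tested probe sets) and a positive log2 difference for 19 (50.7% over all). The median log2 difference was 0.04. The ligand gene KITLG was below the filter, above background on 1 in vivo and 1 in vitro array, with signals of 9.98 ± 15.2 and 17.8 ± 19.2. PIK3R1, the regulatory subunit of PI3 kinase, had 113 ± 34.7 in vivo and 52.6 ± 18.7 in vitro. Its other tested probe sets had log2 differences of -0.66 and -0.45 beside -1.00 at this one. The limma adjusted p was 0.277. FLT3, a receptor of the same class as KIT, had 0.71, the transcription factor STAT5B had 0.57 and the phospholipase PLCG1 had -0.69, at adjusted p-values of 0.365, 0.383 and 0.398 in limma. FOXO1 and the kinase PDPK1 had 0.28 and 0.34.

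**Figure D4:**
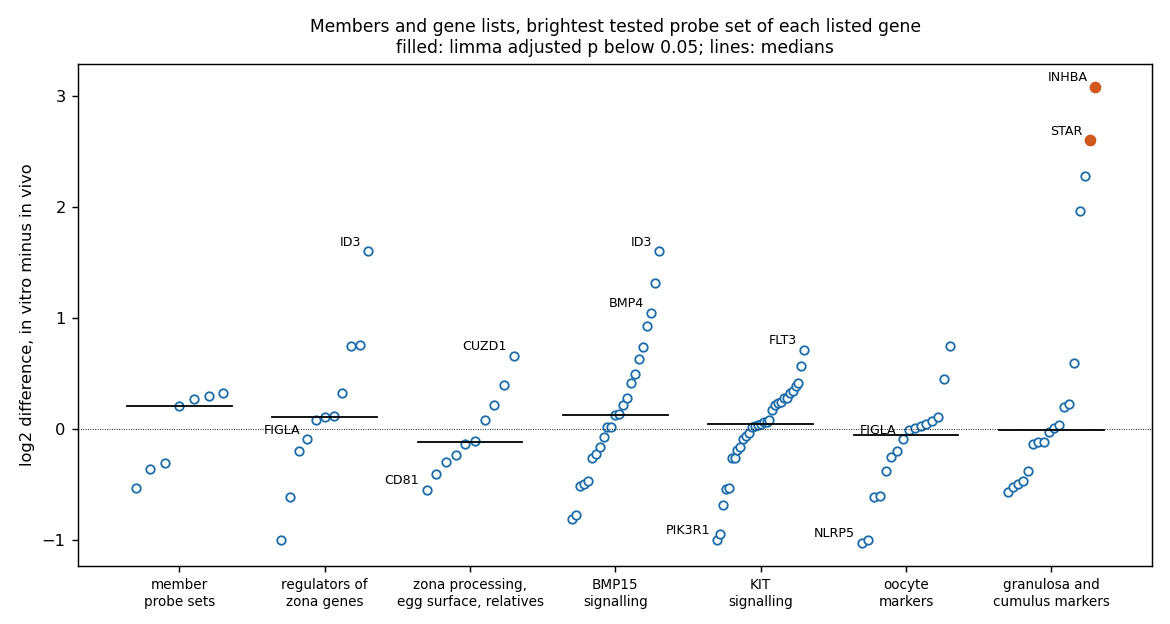
Log2 difference, in vitro minus in vivo, of the member probe sets and of every tested gene of 6 lists at its brightest probe set; filled points passed a limma adjusted p of 0.05 and lines are medians. The 7 members lie between -0.53 and 0.32, and the points that passed are INHBA and STAR.

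Genes used as markers of other cell types that can come along with an oocyte were also measured. In pooled RNA, fewer cells of a type and less RNA per cell cannot be told apart. Nor can a transcript of the oocyte itself be told from the same transcript of another cell. Which cells gave these signals was not tested. Of 25 granulosa and cumulus markers 18 were tested, with a median log2 difference of -0.01. INHBA and STAR passed as higher in vitro and 0 as lower, beside 0.144% of all tested probe sets in either direction. An unadjusted p under 0.05 was found for 5, each higher in vitro, beside 10.2% over all tested probe sets. INHBA, the activin beta A subunit, was 8.46-fold higher and the steroidogenic gene STAR 6.05-fold higher in vitro (limma adjusted p = 0.00226 and 0.00861). STAR did not pass without in vitro replicate 1, 2 or 3 (adjusted p = 0.0563, 0.0522 and 0.0596), nor without the intensity trend (0.134), and INHBA missed the threshold in the last of these settings alone (0.0508). The next in order, HSD3B2 and EFEMP1, had log2 differences of 2.28 and 1.96 and did not pass, and HSD3B2 was above background on 3 of 4 in vivo arrays. The summed signal of the 20 such genes on the array was 24529 to 29025 in vivo and 24343 to 32641 in vitro, and 14 of them were above background on all 8 arrays. SERPINE2 alone read 13703 ± 2609 in vivo and 12488 ± 2368 in vitro, so the sum says little about dimmer markers such as INHBA and STAR. Of 10 markers of theca, stroma and endothelium 6 were tested, 0 passed and 2 had an unadjusted p under 0.05, beside 10.2% over all tested probe sets. Log2 differences at the brightest probe sets were 1.82 for TAGLN, -1.85 for DCN, -0.41 for VWF and 0.38 for PECAM1. At these probe sets TAGLN was above background on 3 of 4 in vivo arrays and DCN on 2 of 4 in vitro arrays. Both values are thus partly set against background. TAGLN read 616.5 on in vitro replicate 1 and 77.7 to 120.8 on the other in vitro arrays. Other tested probe sets had 0.75 for TAGLN, -0.11, 0.55 and 0.75 for DCN, 0.09 for VWF and 0.45 and 0.34 for PECAM1. The DCN probe sets thus did not share a direction.

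Blood and immune markers had a summed signal over 12 genes of 319 to 464 in vivo and 164 to 262 in vitro. Those ranges do not overlap, as for 6.28% of single tested probe sets, but no such share was computed for sums. Several of the 12 genes lay near background, so the sum is not read as a difference in cells. Of 6 tested members 0 passed and 0 had an unadjusted p under 0.05. HDC had a log2 difference of -0.71. Of the others nearest to the threshold, CD68 was above background on 4 in vivo and 0 in vitro arrays, HBB on 3 and 1 and S100A8 on 4 and 2, so no size of difference is given for them. In all, 1 of the 12 genes was above background on all 8 arrays. Among the oocyte markers 0 of 16 passed and 4 had an unadjusted p under 0.05, beside 10.2% over all tested probe sets. Their median log2 difference was -0.06, with -1.03 for NLRP5 and 0.45 for NLRP13. The unadjusted counts of the lists are not independent. SOHLH1 and LHX8 count both here and among the zona regulators, and ID3 counts both among those regulators and in BMP15 signalling. The part of these cell types in the signals of KIT, BMP15 and the zona genes was not tested.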

How the data were processed

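RNA of pooled oocytes went through 2 rounds of amplification before hybridisation, per the labels' protocols. The authors deposited linear intensity values, made with MAS5 per the submitters' processing notes, with no version given. The trimmed mean was 150 on every array. Amplification starts at the 3' end, so probe sets far from it lose signal where amplification was short. Of 52865 probe sets, 99 controls were left out.

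A pseudocount of 8.2, percentile 25 of the other signals, was added before taking log2, which understates changes of dim probe sets. Probe sets whose mean log2 value lay above the 50th percentile (26383) were fitted with limma 3.58.1 under R 4.3.3 (lmFit, eBayes with an intensity trend), with Benjamini-Hochberg adjustment over all of them at 0.05, in vitro minus in vivo. All 7 member probe sets passed the filter. The code was tested on simulated data.

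Lists are represented by the brightest tested probe set of a gene. Text names all member probe sets, from each list up to 4 genes of smallest unadjusted p, and for each member the 3 genes of highest correlation. Other genes of the lists (MOS, NOBOX, FIGLA, FURIN, BMPR1B, SMAD2, FST, KITLG, CPA3, MS4A2, FOXO1, PDPK1) were named for their role after their values were seen. SERPINE2 was named for the size of its signal, also after values were seen. Members and lists were chosen with earlier results of these data known. Alternatives were other pseudocounts, filters, scalings and variance models, a replicate block, a control-ratio covariate and each array left out in turn. Deviations of same-numbered arrays correlated at -0.0467 to 0.0155 and of differently numbered ones at -0.0453 to 0.0573. No sign of pairing by number was thus seen, but whether samples shared animals or batches is not known. No sequences are shown, as none are used here.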

Additional observations from a re-analysis of the deposited data

How the results depend on the processing

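The 7 member differences kept their direction and stayed short of the threshold under each of the alternatives in which they were tested, 17 for 6 probe sets and 16 for the dim ZP4 probe set, which the filter at the 75th percentile removes. Their lowest adjusted p-value was 0.357, for ZP3 after quantile normalization. With an array left out, the log2 difference ran from -0.56 to -0.21 for ZP1, -0.42 to -0.20 for ZP3, 0.17 to 0.45 for the brightest ZP4 probe set, 0.25 to 0.36 for BMP15 and 0.06 to 0.44 for KIT. The replicate block changed no member's call. The count of all probe sets past the threshold was 38, and 43 with the replicate block, 10 without the intensity trend, 292 with the EEF1A1 control ratio in the model, an alternative added after seeing the data, and 18 to 97 with an array left out (71 and 97 when in vivo replicate 1 or 4 was dropped, and 18, 21 and 21 when in vitro replicate 1, 2 or 3 was). The cause was not tested. ID3 brought 1 call to the lists of zona regulators and BMP15 signalling under the settings in which it passed, and the granulosa list had 0 calls without the intensity trend and 4 with the replicate block. Signal over background limits the dim ZP4 probe set, which at 19.6 on in vitro replicate 2 was barely above a background of 19.6.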
